A study of Mus musculus with 4 samples.

Results

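The cells described here are Pi16-positive fibroblasts of the mouse aorta at baseline, from the library labelled SHF_Baseline. A barcode counted as a member if it had at least 500 detected genes, at most 10% of its UMIs (unique molecular identifiers, each 1 captured transcript) from mitochondrial genes, at least 1 Pdgfra and 5 Dcn UMIs, at most 2 Myh11 UMIs, no Ptprc or Pecam1 UMI, under 2 Comp and under 2 Chad UMIs, and at least 2 Pi16 UMIs. These conditions selected 2415 of the 9412 barcodes of that library, out of 31676 barcodes in the 3 libraries used. The members made up 28.2% of the 8579 barcodes that passed the gene and mitochondrial limits and 78.9% (exact binomial 95% interval 77.4 to 80.3) of the 3062 fibroblasts that met every condition other than Pi16. The comparator was the 417 fibroblasts of the same library that met the same conditions and had no Pi16 UMI, and the remaining 230 had exactly 1.

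The study compared cells of the ascending aorta from the second heart field (SHF) with cells of other origins, and their response to angiotensin II (AngII). All samples came from male Mef2c-mTmG mice, a strain that carries a fluorescent lineage reporter, and live single cells were sorted on the lineage before droplet capture with 10x 3′ chemistry. SHF_Baseline came from uninfused mice, SHF_AngII and CNC_AngII from mice infused with AngII for 3 days. The labels do not spell out CNC, the age of the mice, the promoter behind the reporter or how many mice were pooled, and the fourth sample, CNC_Baseline, was not analysed here. Each group was 1 library, so no comparison has a replicate check and no p-value is given. Every interval covers counting error only.

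Fibroblasts of the adventitia, the outer coat of an artery, secrete and organise collagen and elastic fibres. Across mouse tissues, a fibroblast state that carries Pi16 (peptidase inhibitor 16) together with Dpp4, Ly6a and Clec3b has been described around vessels and in fascia, and is often regarded as a progenitor-like state. In the aorta, adventitial cells that carry Ly6a (Sca-1) have long been studied as a source of other mesenchymal cells.

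The SHF_Baseline table held 92474476 UMIs, against 147854476 in SHF_AngII and 150954701 in CNC_AngII, and between 29 and 34 barcodes occurred in any pair of libraries. Members had a median of 9416 UMIs and 2870 genes per cell, and Pi16=0 fibroblasts had 8637 UMIs and 2709 genes. Cells with exactly 1 Pi16 UMI were shallower, at a median of 6598 UMIs. Scrublet marked 13 members (0.538%) and 2 of the Pi16=0 cells (0.48%) as doublets, and these were kept. At least 1 of Lum, Col1a1 and Col1a2, abundant genes listed as fibroblast markers, was detected in 100% of the members and 100% of the Pi16=0 cells. The 3 genes summed to 11799 CPM (counts scaled to a fixed total of UMIs per group) in members, against 14392 CPM in the Pi16=0 cells.

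Because the rule used Pi16, the Pi16 level itself is a description of the choice. Members held a median of 14 Pi16 UMIs, with quartiles of 6 and 36 and a maximum of 461, and 4131 CPM over all members. Just outside the threshold lay the 230 cells with 1 UMI, and just inside it 158 cells with 2 and 159 with 3. Smooth muscle cells of the same library (at least 10 Myh11 UMIs, no Pdgfra or Ptprc UMI, 2169 cells, median 12655 UMIs) should lack Pi16. Of them, 12.6% had a UMI, 1.61% had at least 2, and the level was 18.5 CPM. Barcodes with many Myh11 UMIs and any Pdgfra UMI were left out of these shares. A single Pi16 UMI was thus found in some smooth muscle cells, and few of them reached the threshold of the rule. The 43 endothelial cells of the library (at least 2 Cdh5 UMIs, no Pdgfra or Ptprc UMI, median 8302 UMIs) differed from this. Of them, 65.1% had a Pi16 UMI and 48.8% (33.3 to 64.5) at least 2, at 248 CPM. The threshold was thus often reached in that small group, and the source of its Pi16 UMIs was not tested.

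**Figure D1:**
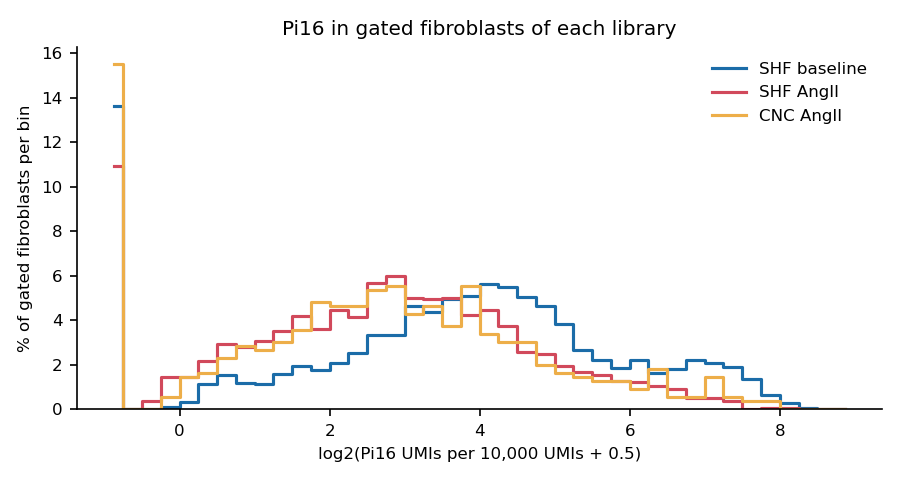
Distribution of Pi16 over gated fibroblasts before the Pi16 condition, as log2 of Pi16 UMIs per 10,000 UMIs plus 0.5 (horizontal) against the percentage of fibroblasts per bin (vertical), for 3062 SHF baseline, 2004 SHF AngII and 561 CNC AngII cells; the leftmost bar is the cells with no Pi16 UMI. The SHF baseline cells form 1 broad peak with a shoulder at high values, and the 352 members with at least 80 Pi16 UMIs per 10,000 lie in that shoulder.

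Other conditions also shaped the group. Of the barcodes with at least 2 Pi16 UMIs that failed exactly 1 condition, 813 lacked a Pdgfra UMI, 517 had a Pecam1 UMI, 110 had more than 2 Myh11 UMIs, 108 had too many Comp UMIs, 18 exceeded the mitochondrial limit, 5 had too few genes, 4 had too few Dcn UMIs, 4 had too many Chad UMIs and 1 had a Ptprc UMI. The members therefore include fewer than all barcodes of the library with at least 2 Pi16 UMIs. Whether the barcodes left out were fibroblasts was not tested.

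Promoter sequences are shown for 3 genes: Pi16, which defines the cells, Ly6c1, which had the highest ratio to the Pi16=0 cells among the 30 genes plotted for their ratios, and Dpt, a marker of the label whose level differed little. Each runs 5′ to 3′ on the gene's strand from 250 bases before the RefSeq start to 30 bases from it (GRCm38.p6), and capitals mark a CCAAT or TATAAA match. The window of Pi16 lies at chr17:29318632-29318911 on the plus strand, that of Ly6c1 at chr15:75048808-75049087 on the minus strand and that of Dpt at chr1:164796413-164796692 on the plus strand. Another annotation (GENCODE M21) places the Pi16 gene at chr17:29317680-29330593, so the Pi16 window lies inside that gene.
Pi16: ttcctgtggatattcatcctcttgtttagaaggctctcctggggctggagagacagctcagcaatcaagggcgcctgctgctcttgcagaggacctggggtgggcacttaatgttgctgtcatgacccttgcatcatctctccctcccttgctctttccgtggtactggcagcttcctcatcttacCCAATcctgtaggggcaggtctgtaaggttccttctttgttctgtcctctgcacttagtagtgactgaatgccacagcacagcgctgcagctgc
Ly6c1: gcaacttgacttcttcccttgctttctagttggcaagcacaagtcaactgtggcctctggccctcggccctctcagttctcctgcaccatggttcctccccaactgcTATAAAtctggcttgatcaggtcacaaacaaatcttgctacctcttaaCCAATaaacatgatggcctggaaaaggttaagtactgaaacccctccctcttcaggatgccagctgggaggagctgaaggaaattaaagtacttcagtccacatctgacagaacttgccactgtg
Dpt: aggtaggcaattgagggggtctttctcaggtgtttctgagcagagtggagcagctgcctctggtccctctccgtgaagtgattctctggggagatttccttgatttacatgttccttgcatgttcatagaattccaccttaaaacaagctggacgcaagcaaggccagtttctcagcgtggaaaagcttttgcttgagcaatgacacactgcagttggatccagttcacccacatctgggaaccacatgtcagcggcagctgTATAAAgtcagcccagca
The motifs were searched on both strands by their letters. CCAAT occurred in 36.1% of 32851 promoter windows of the same length, TATAAA in 13.1%, TGANTCA (AP-1) in 7.46% and GGAATG (TEAD) in 13.9%. Pi16 held a CCAAT that began 64 bases before the start, Ly6c1 a TATAAA 143 and a CCAAT 95 bases before it, and Dpt a TATAAA 12 bases after it. These matches describe letters in the window and are not evidence of binding.

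The 3 other markers of the label were then read in the members. Clec3b, the plasminogen-binding protein tetranectin, stood at 1558 CPM in members and 355 CPM in Pi16=0 cells, a log2 ratio of 2.13, with a median of 9 UMIs per member and 0 per Pi16=0 cell. Ly6a (Sca-1) stood at 1072 and 236 CPM, a log2 ratio of 2.18, with medians of 4 and 0 UMIs. Dpt, the matrix protein dermatopontin, was at 1180 CPM in members and 1069 CPM in Pi16=0 cells, a log2 ratio of 0.14 (95% interval 0.09 to 0.19), so it marked both groups of fibroblasts. When every cell was thinned to 5000 UMIs, which left out 462 members and 91 Pi16=0 cells, Clec3b, Ly6a and Dpt were all detected in 1149 of 1953 members (58.8%, 56.6 to 61.0) and in 45 of 326 Pi16=0 cells (13.8%, 10.2 to 18.0). None of the 3 was detected in 1.23% of the thinned members and 11.7% of the thinned Pi16=0 cells. In the smooth muscle cells, without thinning, 3.27% had a Clec3b UMI, 2.81% a Ly6a UMI and 7.05% a Dpt UMI. The label's markers were thus present in the members, but Dpt did not set them apart from other fibroblasts, and position in the vessel wall was not measured.

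Members and Pi16=0 cells were compared by the sum of UMIs over each group, and log2 ratios were taken after adding 1 CPM to both levels. A gene was counted as higher or lower when it differed at least 2-fold at a mean level of at least 20 CPM. The rule that selected the members fixed this contrast, so its ratios describe the cells and test nothing. Of 5619 genes at that level, 120 (2.14%) were higher in members and 129 (2.3%) lower, with a median log2 ratio over all genes of 0.03. Genes of an adventitial progenitor list, 28 of whose 30 members reached 20 CPM, were higher for 25 and lower for 0, with a median of 2.0. Limch1 was the only one of the 28 below 0, at -0.52, while Col14a1 at 0.58 and Dpt at 0.14 were above 0 without reaching 2-fold. The list had been assembled with earlier results of these data known.

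Among the 15 genes named for the highest ratios were several that encode surface or signalling proteins. Ly6c1, a surface antigen of the Ly6 family, stood at 261 CPM in members and 11.1 CPM in Pi16=0 cells, a log2 ratio of 4.44, and was detected in 37.2% and 5.04% of them. Its value is uncertain, because 12.4% of the 1667 60-base stretches at the 3′ ends of its transcripts are identical in Ly6c2 and 1.14% in Ly6a. Cd248 (endosialin), a stromal surface glycoprotein, stood at 281 and 16.9 CPM, a log2 ratio of 3.98, and was detected in 44.8% and 11.8% of cells. At the common depth of 5000 UMIs these shares were 34.2% and 3.07% for Ly6c1 and 40.2% and 6.13% for Cd248, so both contrasts held at equal depth. Anxa3, an annexin, stood at 543 and 43.2 CPM (log2 ratio 3.62), although it overlaps the annotated gene Gm42603 on the same strand. Sema3c, a secreted guidance cue, stood at 245 and 27.9 CPM (3.09), and Cd55, which protects cells from complement, at 209 and 39.8 CPM (2.36).

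Others of the 15 encode secreted or matrix proteins. Igfbp5, which binds insulin-like growth factors, stood at 1745 CPM in members and 191 CPM in Pi16=0 cells, a log2 ratio of 3.19, yet it was detected in only 42.4% of members and 28.8% of Pi16=0 cells. Mfap5, a microfibril component, was found in 99.3% of members and 78.4% of Pi16=0 cells, with medians of 20 and 3 UMIs per cell and levels of 3341 and 597 CPM (log2 ratio 2.48). Mfap5 also had a UMI in 77.9% of smooth muscle cells, at 537 CPM, so the Pi16=0 level was close to that of smooth muscle. Fn1 (fibronectin) had a log2 ratio of 2.65, Fbln2 (fibulin 2) 2.59, Has1 (a hyaluronan synthase) 2.59 and Nbl1 (a secreted BMP antagonist) 2.47. The other named genes on this side were Fez1 at 2.52 and the interferon-induced Ifi27l2a at 2.04.

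Genes lower in members included secreted Wnt regulators, vascular genes and Apoe. Apoe, the lipid carrier apolipoprotein E, was abundant in both groups, at 2913 CPM in members and 11660 CPM in Pi16=0 cells, with medians of 12 and 60 UMIs per cell and a log2 ratio of -2.00. Igfbp3, another binding protein of insulin-like growth factors, went the other way from Igfbp5, at 50.6 and 418 CPM (-3.02). Tbx20, a cardiac transcription factor, stood at 9.51 and 121 CPM (-3.54). Postn (periostin), a matricellular protein, stood at 68.0 and 325 CPM (-2.24), Clu (clusterin) at 36.0 and 182 CPM (-2.31) and the Wnt antagonist Sost (sclerostin) at 18.7 and 85.5 CPM (-2.14). The remaining ratios were -3.05 for Trf (transferrin, which overlaps Gm20425 on the same strand), -2.92 for Ahsg, -2.75 for Cox4i2, -2.63 for 1500015O10Rik, -2.44 for Gucy1a3, -2.16 for Fbln7, -2.05 for the pericyte gene Rgs5 and -1.90 for Tmem176a.

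Some of the low ratios rested on few Pi16=0 cells. Wif1, a Wnt inhibitor, had the lowest named ratio, at 14.1 and 275 CPM (-4.19), but this ranged from -5.73 to -3.37 under the alternatives. It was detected in only 13.4% of Pi16=0 cells, and 55.9% of its UMIs there came from 5 cells. Cd74, the invariant chain of antigen presentation, was even lower at 1.49 and 102 CPM (-5.37), yet only 5.52% of Pi16=0 cells had it and 5 cells held 61.8% of its UMIs. Cd74 failed the share set for naming and was singled out after its values were seen.

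**Figure D2:**
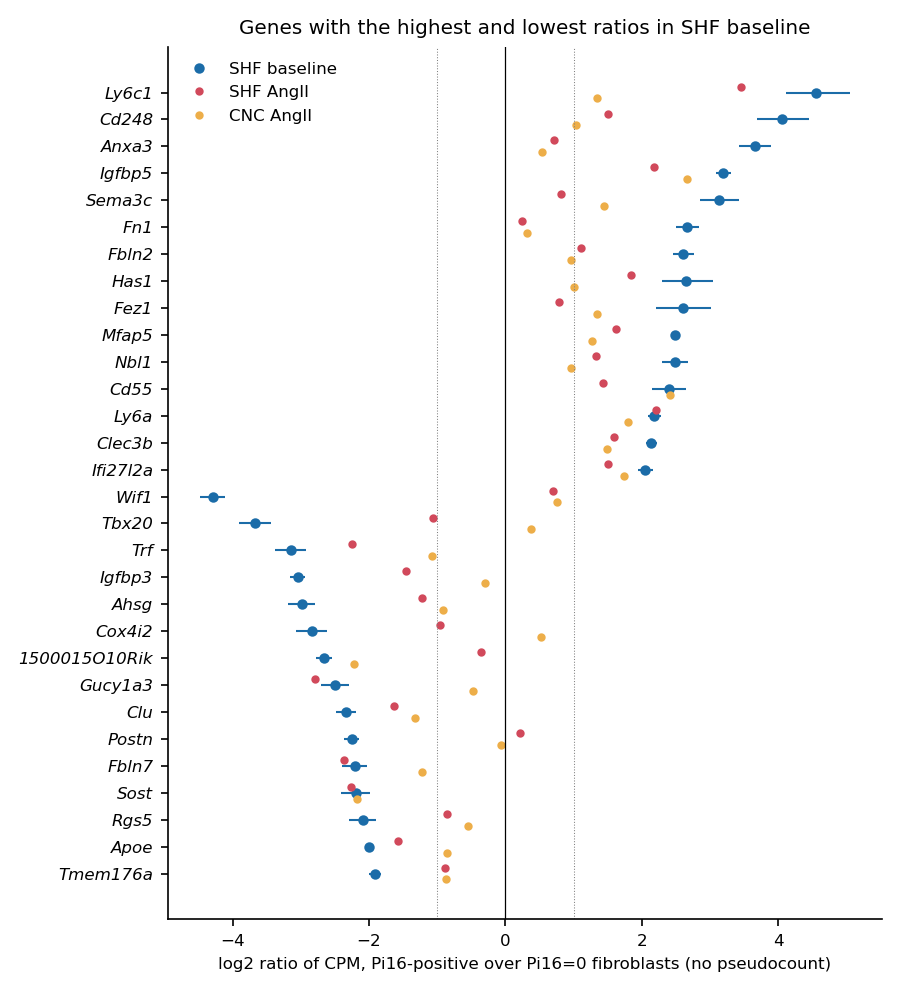
Log2 ratio of CPM in Pi16-positive over Pi16=0 fibroblasts, without pseudocount (horizontal), for the 15 highest and 15 lowest named genes (vertical). Blue points are SHF baseline with 95% counting intervals, red points SHF AngII and yellow points CNC AngII, and dotted lines mark 2-fold; the baseline ratios of all 30 genes lie outside those lines, whereas many AngII ratios lie nearer 0, such as Anxa3 at 0.71 and 0.53 on the log2(CPM + 1) scale.

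The same contrast was then read by gene list. Of 16 elastic fibre genes, 5 were higher in members (Fbn1 at 1.41, Fbln2, Efemp1 at 1.24, Emilin2 at 4.15 and Mfap5) and 1 was lower (Emilin1 at -1.26), with a median of 0.31. Genes of the collagen and crosslinking list, which also holds collagen-processing genes such as Pcolce2 and Lox, moved little. Of 20, Col12a1 at 1.80 and Pcolce2 at 1.52 were higher, none was lower, and the median was 0.16. Col1a1 stood at 3848 and 5033 CPM (-0.39) and Col3a1 at 6957 and 7391 CPM (-0.09), so both stayed within 2-fold. The median absolute log2 ratio over all genes was 0.178. Of 9 small leucine-rich proteoglycan genes, Aspn was higher at 1.07 and Fmod (fibromodulin) lower at -1.56, with a median of 0.01. Among 17 proteases and inhibitors, Adamts5 was higher at 1.11 and Mmp3 lower at -1.11, with a median of 0.02.

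Signalling genes were read from 4 lists. Of 9 Wnt pathway genes, Sfrp4 was higher at 1.25, and Wif1, Frzb at -1.66, Dkk3 at -1.24 and Rspo3 at -2.59 were lower, with a median of -0.56. Rspo3 encodes a Wnt agonist while the other 4 are secreted Wnt antagonists or their relatives. Of 17 TGF-beta and BMP genes, 0 were higher and the inhibitory Smad6 at -1.13 and Smad7 at -1.05 were lower, with a median of -0.23. The receptors and ligands of that list stayed within 2-fold, for example Tgfbr2 at 158 and 140 CPM and Bmp4 at 174 and 132 CPM. Of 7 insulin-like growth factor genes, Igfbp5 and Igfbp6 at 1.63 were higher and Igfbp3 was lower (median -0.03, between -0.071 and 0.092 under the alternatives, so without a stable sign). Of 14 growth and guidance factors, Sema3c was higher, and the lower genes included Kitl at -1.52 and Ptn at -1.82 (median -0.30).

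Immune signalling genes were mixed. Of 10 chemokine and cytokine genes, the scavenging receptor Ackr3 was higher, at 757 and 286 CPM (1.40), and Cxcl12 at -1.36, Ccl2 at -1.30, Ccl7 at -1.54 and Ccl19 at -1.17 were lower, with a median of -0.33. Of 9 complement genes, Cd55 was higher and C2 at -1.45, C4b at -1.04 and Clu were lower, with a median of 0.13. Of 6 lipid genes, Aldh1a3 was higher at 2.75 and Apoe lower (median -0.32).

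Of 19 transcription factors, 3 were higher: Osr1 at 122 and 42.3 CPM (1.51), Ebf1 at 442 and 219 CPM (1.01) and Ebf2 at 74.6 and 13.3 CPM (2.40). Tbx20 and Sox9, the latter at 46.9 and 111 CPM (-1.22), were lower, and the median was -0.13. Tcf21 and Klf4, which mark many aortic fibroblasts, differed little, at 255 and 243 CPM and at 711 and 691 CPM. Of 9 myofibroblast genes, Cthrc1 at 1.88 and Fn1 were higher and Tagln at -1.20, Tpm2 at -1.40 and Postn were lower (median -0.48). Of 16 genes of other fibroblast states, Smoc2 was higher, at 820 and 349 CPM (1.23), and Penk, Apod and Fmod were lower (median -0.31). None of 19 immediate early and heat shock genes reached 2-fold (median 0.08), nor did the 1 proliferation gene at 20 CPM (-0.03). Of 2 genes of the angiotensin axis list at 20 CPM, Ace (angiotensin-converting enzyme) stood at 189 and 181 CPM and Rgs2, a regulator of G protein signalling, at 5.09 and 51.2 CPM (-3.10), with a median of -1.52. Rgs2 was detected in 13.2% of Pi16=0 cells, 5 of which held 48.6% of its UMIs there, and without the top 1% of cells the median of the list was 0.085.

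Markers of other cell types moved with these ratios. The 8 smooth muscle markers summed to 1092 CPM in members and 2312 CPM in Pi16=0 cells, with none at 0, and pericyte markers to 285 and 411 CPM. Macrophage markers summed to 8.20 and 22.7 CPM, and cardiomyocyte markers to 27.4 and 100 CPM, with 2 of 4 at 0 in both groups. In members the cardiomyocyte sum was nearly all Tnnt2, at 27.3 CPM, with Actc1 at 0.0438 CPM. It thus reads 1 gene there rather than the cell type. These levels stand beside the lower Tagln, Tpm2, Rgs5 and Tbx20, and their part in those ratios was not tested. Endothelial markers were at 6.62 and 4.98 CPM, cartilage-like markers at 191 and 185 CPM, Schwann markers at 16.7 and 15.5 CPM and mesothelial markers at 5.79 and 0.553 CPM. Here too, 1 gene made up most of some sums in members. Krt19 stood at 4.82 CPM within the mesothelial sum and Kdr at 5.61 CPM within the endothelial sum. S100b stood at 14.2 CPM within the Schwann sum, for which 2 of 4 markers were listed. The near-equal cartilage-like sums held genes that differed in direction. Cytl1 was higher in members, at 134 and 63.6 CPM, and Sox9 was lower, as given above. T cell, B cell, neutrophil, adipocyte and erythrocyte markers all stayed under 1 CPM in both groups. Only 1 of 4 adipocyte markers (Plin1), 1 of 3 neutrophil markers (S100a8) and 2 of 3 B cell markers were listed at baseline. Barcodes with a Ptprc UMI had already been removed by the rule.

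The members were not uniform in Pi16. Divided by Pi16 UMIs per 10,000 UMIs, 269 members had under 5, 393 had 5 to 10, 597 had 10 to 20, 544 had 20 to 40, 260 had 40 to 80 and 352 had 80 or more. These limits were chosen after the data were seen. Across the bands, from lowest to highest, Mfap5 stood at 1179, 1738, 2209, 3254, 4677 and 7398 CPM, and Clec3b at 498, 809, 1019, 1525, 2455 and 3331 CPM. Both genes thus climbed at each step with the Pi16 level. Ly6a stood at 201 CPM in the lowest band, under the 236 CPM of Pi16=0 cells, and reached 2792 CPM in the highest. Igfbp5 stayed between 108 and 258 CPM up to 20 Pi16 UMIs per 10,000 and then stood at 536, 2442 and 7520 CPM, so its level was concentrated in the upper bands.

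Dpp4, a surface peptidase used to mark the progenitor-like state, was nearly restricted to the same bands. It had 0 UMIs in both bands under 10, then 0.571, 5.03, 41.4 and 166 CPM, and 1 UMI in all Pi16=0 cells (0.277 CPM). Dpt stayed between 903 and 979 CPM in the 4 lower bands and stood at 1385 and 2067 CPM in the upper 2, which places its rise above 40 Pi16 UMIs per 10,000. Ren1 (renin), the enzyme that begins angiotensin production, stood at 5.14 CPM or less in the 4 lower bands and at 408 and 168 CPM in the upper 2.

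Other genes fell off toward high Pi16. Apoe stood at 6170, 4215, 3333, 2355, 1142 and 251 CPM from the lowest to the highest band. Mgp (matrix Gla protein), an inhibitor of calcification and the most abundant of the genes followed, stood at 16150 CPM in the lowest band, 11466 CPM at 20 to 40 and 1308 CPM in the highest. Fmod stood at 434, 255, 147, 92.7, 31.1 and 0.257 CPM. Smoc2 and Col15a1 peaked in the middle: Smoc2 stood at 605 CPM in the lowest band, 1163 CPM at 20 to 40 and 304 CPM in the highest, and Col15a1 at 210, 428 and 23.7 CPM. Genes lower in the upper bands therefore included some, such as Smoc2, that were higher in members than in Pi16=0 cells.

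**Figure D3:**
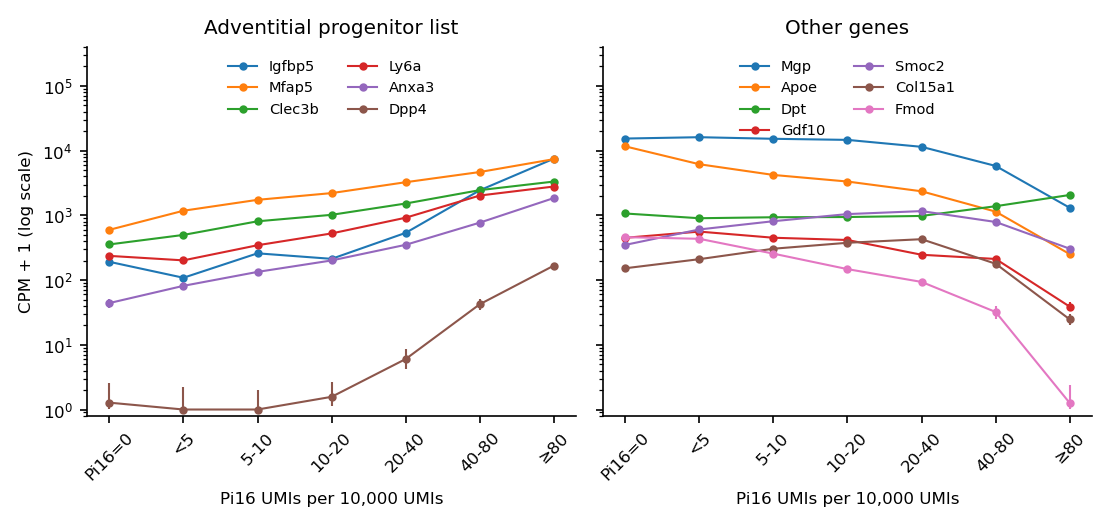
Level of selected genes as CPM + 1 on a log scale (vertical) in Pi16=0 fibroblasts and in members grouped by Pi16 UMIs per 10,000 UMIs (horizontal), SHF baseline, with 95% Poisson intervals. On the left, Mfap5 and Clec3b climb at every band while Dpp4 and Igfbp5 climb in the upper bands, and on the right, Mgp, Apoe and Fmod fall while Dpt is nearly level up to 40.

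The 612 members with at least 40 Pi16 UMIs per 10,000 were set against the 662 with under 10. Of 5674 genes at 20 CPM or more, 301 (5.3%) were at least 2-fold higher in the high group and 377 (6.64%) lower. Of the adventitial progenitor list, 29 of 30 were higher and 0 lower, with a median log2 ratio of 2.64. Dpp4 had 744 UMIs in the high group and 0 in the low group, at least 269-fold higher against a floor of 3 UMIs summed over the low group. Akr1c18, a steroid-metabolising enzyme, had 1022 UMIs against 1 (95% interval of the log2 ratio 7.63 to 15.4), detected in 25.8% and 0.151% of cells. Ren1 had 1611 against 11 UMIs, or 259 and 1.63 CPM (log2 ratio 6.63), and was detected in 14.1% of the high cells, so a minority of cells carried it.

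Further genes of the high group were the phospholipase Pla1a at 132 and 0.74 CPM (6.26), the sphingomyelinase Smpd3 at 202 and 3.11 CPM (5.62), Efhd1 at 237 and 4.59 CPM (5.41), Basp1 at 210 and 4.15 CPM (5.36) and Plac8 at 184 and 3.55 CPM (5.34). Ly6c1 stood at 780 and 22.1 CPM (5.08), and Igfbp5 at 5610 and 189 CPM (4.88) with detection in 84.3% and 25.4% of cells. Tmem100, a small membrane protein, stood at 495 and 20.6 CPM (4.52) and was detected in 79.2% and 8.61% of cells. Igfbp5 and Tmem100 were thus found in most cells of the high group, unlike Ren1. Aldh1a3 stood at 174 and 5.78 CPM (4.69), Car8 at 104 and 3.26 CPM (4.62), and Emilin2 and Adgrd1 had ratios of 4.74 and 4.55.

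The lowest ratios of the high group were those of Smoc1 at 8.83 and 295 CPM (-4.91), Fmod at 11.9 and 337 CPM (-4.71) and Lamc3, a laminin chain, at 11.1 and 255 CPM (-4.41). Fmod was detected in 3.43% of the high cells and 49.7% of the low cells, and Lamc3 in 5.23% and 61.8%. Tmem176a and Tmem176b had ratios of -4.07 and -3.72, Igfbp3 of -4.00, Cytl1 of -3.91, Fblim1 of -3.66, Ntf3 of -3.26, Dapk2 of -3.15, Apoe of -3.12 and Wisp1 of -3.10. Nr4a2 at 29.5 and 299 CPM (-3.30), Gadd45b at 137 and 1173 CPM (-3.09) and Heyl, a Notch target, at 13.6 and 136 CPM (-3.23) completed the 15.

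By list, 7 of 16 TGF-beta and BMP genes were lower in the high group and Fstl1 was higher, with a median of -0.89. Of 15 genes of other fibroblast states, Apod and Ccl11 (4.27) were higher, and Col15a1, Gdf10, Inmt, Mgp (-2.38), Fmod, Col4a1 and Col4a2 were lower (median -0.82). Of 19 immediate early and heat shock genes, 4 were lower and 0 higher (median -0.60). Of 10 complement genes, C3 at 2.12, C7 and Cd55 were higher and 3 were lower. Of 20 collagen and crosslinking genes, 4 were higher and 3 lower (Col1a1, Col16a1 and Lox), with a median of -0.27. Median depth was similar, at 10391 UMIs per high cell and 9825.5 per low cell. Smooth muscle markers summed to 345 and 1638 CPM, pericyte markers to 92.0 and 406 CPM, cartilage-like markers to 43.0 and 269 CPM and mesothelial markers to 15.6 and 3.11 CPM, and their part in these ratios was not tested. Over all members, the mesothelial sum was mostly Krt19. Each group held 4 doublet calls.

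Rank correlation with Pi16 over the 1953 members thinned to 5000 UMIs was computed for 203 genes. The highest Spearman coefficients were 0.72 for Mfap5, 0.66 for Ly6c1, 0.66 for Ly6a, 0.64 for Anxa3 and 0.63 for Cd248, and among the lowest were -0.60 for Apoe, -0.55 for Mgp and -0.51 for Bgn (biglycan). These cells share 1 library, so the coefficients are descriptions.

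Pecam1, an endothelial adhesion molecule, was used to remove cells and was examined for that reason. Without that condition, 597 of 3659 baseline fibroblasts (16.3%, 15.1 to 17.6) had a Pecam1 UMI, against 7.56% in SHF_AngII and 6.81% in CNC_AngII, and 86.6% of these baseline cells had at least 2 Pi16 UMIs. The same cells held 2.71 CPM of Cdh5, 12.7 CPM of Cldn5 and 16.9 CPM of Egfl7, against 0.178, 0.214 and 0.642 CPM in the 3062 fibroblasts without a Pecam1 UMI and 475, 909 and 842 CPM in 43 endothelial cells of the library. At 5000 UMIs, Pecam1 was detected in 10.6% of Pi16=0 cells, in 9.97% to 16.8% of the members' bands and in 4.52% of 2145 smooth muscle cells. Cdh5 was detected in at most 1.06% of any of these fibroblast groups, and Kdr in 0.935% to 4.66%. Fibroblasts with a Pecam1 UMI also held more Tie1 and Vwf than those without, at 1.29 and 1.14 CPM against 0 and 0.0714 CPM. They held less Kdr, at 3.43 against 5.14 CPM. Apart from Kdr, the removed fibroblasts thus held more of these endothelial genes than the kept ones. They held less of each than the endothelial cells, and the part of endothelial RNA in this was not tested.

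**Figure D4:**
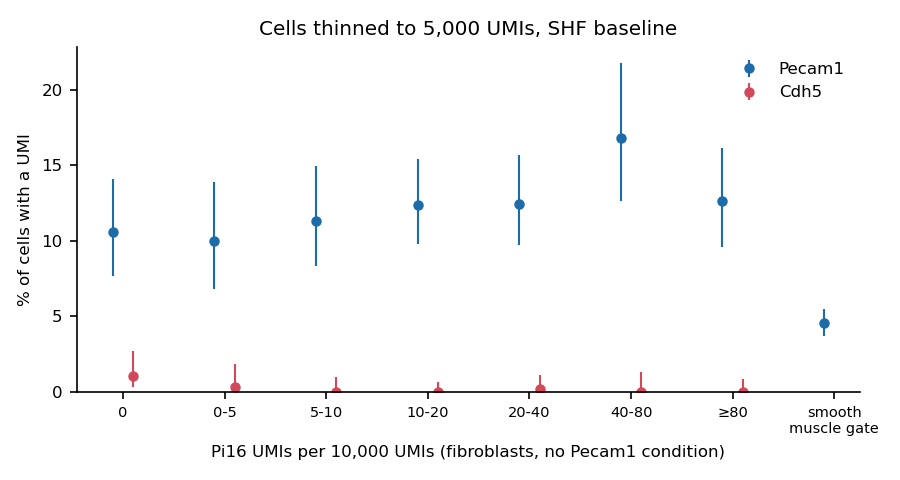
Percentage of cells with a Pecam1 (blue) or Cdh5 (red) UMI (vertical) after thinning to 5,000 UMIs, with exact 95% binomial intervals, for SHF baseline fibroblasts grouped by Pi16 UMIs per 10,000 UMIs without the Pecam1 condition, and for smooth muscle cells (horizontal). Pecam1 lies between 9.97% and 16.8% in fibroblasts and at 4.52% in smooth muscle cells, and Cdh5 lies at or below 1.06% in fibroblasts. Cdh5 was not counted in the smooth muscle cells, so no red point is drawn there.

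The same conditions were applied to both AngII libraries, which the rule did not use. They gave 1641 Pi16-positive cells of 2004 fibroblasts in SHF_AngII (81.9%, 80.1 to 83.5) and 423 of 561 in CNC_AngII (75.4%, 71.6 to 78.9). The Pi16 level was lower there, at 1490 and 1762 CPM against 4131 CPM at baseline, and 3.84% of the SHF_AngII members had at least 80 Pi16 UMIs per 10,000 against 14.6% at baseline. Pi16-positive cells were also deeper, at medians of 15615 and 12263 UMIs. At a common 5000 UMIs the shares were 75.8% at baseline, 67.3% in SHF_AngII and 66.0% in CNC_AngII, so the order of the SHF libraries depended on depth.

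Within SHF_AngII, 46 of 5135 genes (0.896%) were at least 2-fold higher in Pi16-positive cells and 90 (1.75%) lower, and within CNC_AngII 69 of 5110 (1.35%) and 74 (1.45%). Of 25 progenitor genes at 20 CPM, 13 were higher and 0 lower in SHF_AngII (median 1.06), and 12 higher and 0 lower in CNC_AngII (median 0.98). Ly6a kept ratios of 2.21 and 1.80, Igfbp5 of 2.15 and 2.63, Clec3b of 1.58 and 1.49 and Mfap5 of 1.62 and 1.27. Ly6c1 had ratios of 3.38 and 1.33, Cd248 of 1.48 and 1.03, and Fn1 of only 0.24 and 0.31. Not all low baseline genes were low there. Postn had ratios of 0.21 and -0.07, while Apoe had -1.57 and -0.86 and Clu -1.61 and -1.31. Wif1 had ratios of 0.63 and 0.65, but its mean level was under 20 CPM in both libraries. It stood at 11.8 CPM in Pi16-positive cells of SHF_AngII. After thinning, Wif1 was detected in 5.55% of Pi16-positive and 5.88% of Pi16=0 cells of SHF_AngII. In CNC_AngII it was detected in 22 of 396 and 2 of 73, so its direction in these libraries is uncertain. Smooth muscle markers summed to 3727 CPM in Pi16-positive and 8548 CPM in Pi16=0 cells of SHF_AngII and to 3096 and 7523 CPM in CNC_AngII, and macrophage markers in CNC_AngII to 367 and 550 CPM. Mesothelial markers stood at 0.464 and 270 CPM in SHF_AngII, where 4.11% of Pi16=0 cells had any, and the part of these markers in the ratios was not tested. Clec3b, Ly6a and Dpt were all detected in 39.5% of thinned Pi16-positive and 11.2% of Pi16=0 cells of SHF_AngII, and in 37.6% and 8.22% in CNC_AngII.

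Of the 4361 genes at 20 CPM in all 3 libraries, 87 were higher and 76 lower in baseline members. Of the 87, 29 were also higher in SHF_AngII, which is 33.3% of the baseline list and 70.7% of the 41 in SHF_AngII, and 24 in CNC_AngII, 27.6% and 46.2% of 52. Of the 76, 30 were also lower in SHF_AngII (39.5%, and 50.8% of 59) and 20 in CNC_AngII (26.3%, and 51.3% of 39). Over all 4361 genes, 0.94% were higher and 1.35% lower in SHF_AngII, and 1.19% and 0.894% in CNC_AngII. The baseline sign was kept by 81 of the 87 and 67 of the 76 in SHF_AngII, and by 83 and 62 in CNC_AngII. The contrast between high and low Pi16 was repeated among the Pi16-positive cells of both AngII libraries. Of the 30 genes at its ends in baseline, 29 were found in the AngII tables, and all 29 had the same sign in both, 28 of them at least 2-fold in SHF_AngII and 26 in CNC_AngII, with 7 and 9 below 20 CPM. Over all genes that contrast called 207 of 5035 (4.11%) higher and 219 (4.35%) lower in SHF_AngII, and 265 of 5118 (5.18%) and 315 (6.15%) in CNC_AngII. Ren1 stood at 140 and 18.8 CPM in the high and low cells of SHF_AngII and at 20.1 and 3.58 CPM in those of CNC_AngII.

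The Pi16-positive cells of SHF_AngII were last set against those of SHF_Baseline. Of 5186 genes, 253 (4.88%) were at least 2-fold higher after AngII and 527 (10.2%) lower, with a median of -0.14 over all genes. The progenitor list was lower for 17 of 30 and higher for 0 (median -1.17): Igfbp5 stood at 1745 CPM at baseline and 176 CPM after AngII (-3.30), Clec3b at 1558 and 348 CPM (-2.16) and Sema3c at 245 and 30.9 CPM (-2.95), with Efhd1 at -3.89 and Dpt at -1.19. Ly6a, at 1072 and 1615 CPM (0.59), and Mfap5, at 3341 and 2886 CPM, stayed within 2-fold. Of 9 myofibroblast genes, 6 were higher and 0 lower (median 1.84). Timp1, a metalloproteinase inhibitor, stood at 193 and 3456 CPM (4.15), Cthrc1, a secreted gene of injury-activated fibroblasts, at 35.4 and 613 CPM (4.08), and Acta2, smooth muscle actin, at 489 and 1804 CPM (1.88), with Postn at 2.24, Tagln at 1.84 and Tpm2 at 1.69.

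Proliferation genes were higher for 10 of 11 and lower for 0 (median 2.96), and chemokine and cytokine genes higher for 6 of 11 and lower for 2 (median 1.07), with Ccl7 at 3.10, Ccl19 at 2.30 and Ccl2 at 2.15. Of 19 immediate early and heat shock genes, 1 was higher and 10 lower (median -1.06). Smooth muscle markers summed to 1092 CPM at baseline and 3727 CPM after AngII, beside the myofibroblast genes Acta2, Tagln and Tpm2, and their part in those ratios was not tested. The baseline table lists 18760 gene rows and 32285 are listed in each AngII table, the libraries differed in depth, and each condition was 1 library, so condition, library and annotation cannot be told apart in this comparison.

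**Figure D5:**
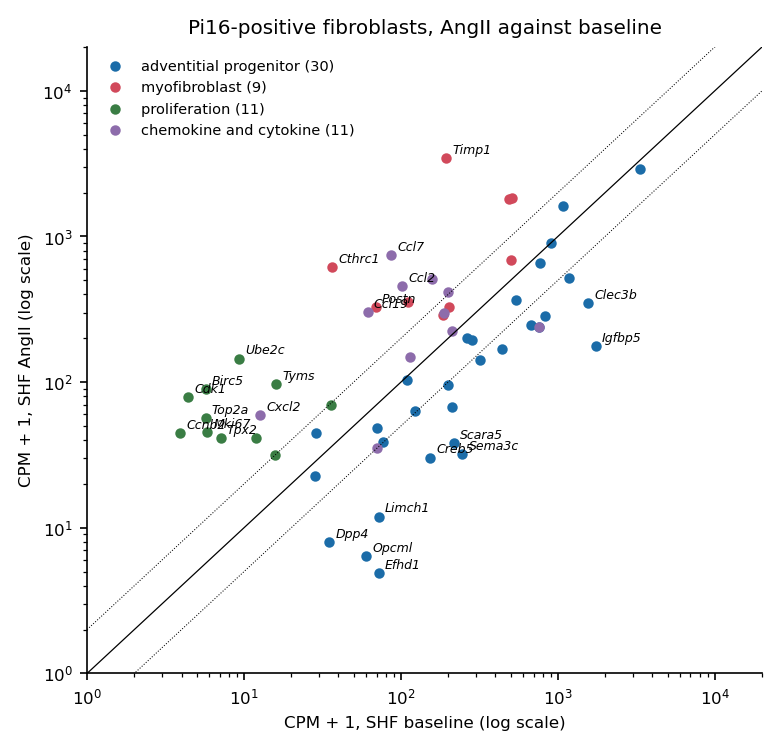
Level of listed genes in Pi16-positive fibroblasts as CPM + 1 in SHF baseline (horizontal, log scale) and SHF AngII (vertical, log scale); the solid line marks equality and dotted lines 2-fold. Of the myofibroblast genes 6 of 9, and of the proliferation genes 10 of 11, lie above the upper dotted line, for example Timp1 at 193 and 3456 CPM, and 17 of 30 adventitial progenitor genes lie below the lower one.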

How the data were processed

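The authors deposited 1 table of raw UMI counts per gene and barcode for each library, with no normalisation. The submitters' processing notes name mm10, fastp, STAR 2.5 and HTSeq 0.6.1, without their roles; cell calling and counting settings are not given in the sources used here. No file held cell annotations, and 13 repeated names of the baseline table were left out.

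Counts were summed over cells and expressed as CPM in Python 3.11.15 (numpy 2.4.6, pandas 2.3.3, scipy 1.17.1). Intervals are exact Poisson or binomial at 95%. Thinning used seed 0. The 8 genes of the rule were left out of every count of genes. Named genes were the 15 highest and 15 lowest ratios at a mean of at least 50 CPM with a UMI in at least 10% of cells of the higher group, without mitochondrial and ribosomal protein genes, plus genes of the lists and markers. Members, lists and limits were chosen with earlier results of these data known. Scrublet (scanpy 1.11.5) marked 233 baseline barcodes (2.58%), which were kept in the main values. Alternatives covered the Pi16, gene and mitochondrial limits, doublets, comparator, scaling (TMM in edgeR 4.0.16, R 4.3.3), depth, pseudocount and low levels. The scripts were checked on simulated data. Values of some single genes are not reported here.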

Additional observations from a re-analysis of the deposited data

Results flagged for a closer look

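Ptn (pleiotrophin), a secreted growth factor, differed in direction between libraries. At baseline it stood at 66.4 CPM in Pi16-positive and 236 CPM in Pi16=0 fibroblasts, a log2 ratio of -1.82, and was detected in 6.38% and 25.4% of them. In CNC_AngII it stood at 216 and 102 CPM, a log2 ratio of 1.07 with detection in 18.4% and 13.8%, and in SHF_AngII the ratio was 0.91. Each library is 1 sample, and the difference was not tested.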

How the results depend on the processing

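All 30 named genes stayed at least 2-fold in baseline under all 420 combinations of gene and alternative that were run, but 132 of these values moved beyond their counting interval. Wif1 ranged from -5.73 to -3.37, Ly6c1 from 3.37 to 5.18 and 1500015O10Rik from -4.42 (comparators of any Comp and Chad level) to -2.17. The medians of the IGF, small leucine-rich proteoglycan, protease and proliferation lists, all near 0, took both signs at baseline. The progenitor median, 2.0, was 1.73 with means of per-cell CPM, 2.20 with depth-weighted comparators, 2.32 with comparators of any Comp and Chad level and 2.27 without the top 1% of cells for each gene, the last added after seeing the data. That alternative turned the median of the 2 angiotensin axis genes from -1.52 to 0.085. Counts of genes moved most with the minimum level. At 50 CPM, higher and lower genes numbered 68 and 69 at baseline, 28 and 33 in CNC_AngII, 178 and 199 for high over low Pi16, and 146 and 240 for AngII over baseline, with 46 lower in SHF_AngII. With no minimum they numbered 413 and 581, 974 and 616, 704 and 1302, and 735 and 1358 in the same order, and 216 and 490 in SHF_AngII. Thinning gave 151 and 159 in CNC_AngII, and a pseudocount of 10 CPM gave 43 and 48 there and 320 lower for AngII over baseline. The Pi16-positive share in SHF_Baseline, SHF_AngII and CNC_AngII was 86.4%, 89.1% and 84.5% at 1 or more Pi16 UMIs, 65.1%, 65.8% and 58.8% at 5 or more, and 75.8%, 67.3% and 66.0% after thinning. At baseline it was 81.4% with at least 1500 genes and 80.7% with at most 5% mitochondrial UMIs. No paired analysis was possible because each group was 1 library. The single library per group, the unstated number of mice and the differing gene tables limit every comparison between libraries, and a low count cannot show that a gene is absent.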
